A study of Mus musculus with 20 samples.

Results

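A set of 40 immediate early genes and genes of the AP-1 transcription factor family was followed in mouse liver after a single dose of estradiol (E2), with and without estrogen receptor alpha. The members form a list of gene names: 9 genes of the bZIP class (Jun, Junb, Jund, Fos, Fosb, Fosl1, Fosl2, Atf3 and Maff), 10 zinc-finger and NR4A factors, 12 genes of feedback and growth restraint, and 9 others, among them Myc and the IER genes. All 40 were found on the array, with 46 probes. Of these genes, 35 passed the filter on dim probes and were measured, out of 21998 genes measured in all. The other 5 were not well above background on most arrays: Fosl1 was so on 1 of 20 arrays, Egr2 on 3, Egr3 on 2, and Nr4a3 and Dusp5 on 0. Each of the 35 was read from its brightest probe, which was well above background on all 20 arrays.

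The livers came from 20 ovariectomized mice in 4 groups of 5, with 1 array per animal. Wild types (ERa+/+) and receptor-null mice (ERa-/-) each received a gavage of placebo, which was castor oil with 5% ethanol, or of E2 at 1 mg/kg. All had lost their ovaries at 4 weeks of age, were gavaged at 9 weeks, and were killed 4 hours later after injected anaesthesia, with xylazine at 10 mg/kg and ketamine at 100 mg/kg, which every group therefore shared. The genotypes came from the same parents and were housed 5 to a cage. Which animals shared a cage, the strain, and the part of the receptor gene that was deleted are not given in the sources used here. In the descriptions below, wild-type placebo, wild-type E2, null placebo and null E2 name the groups, and animals are numbered 1 to 5 within each.

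Immediate early genes are transcribed within minutes of a stimulus, without new protein synthesis, through factors such as SRF, ELK1 and CREB that already sit in the cell and are switched on by kinases. Many of their products are transcription factors, and JUN and FOS proteins pair as AP-1. Others, such as the dual-specificity phosphatases, the RNA-binding ZFP36 proteins and the NF-kappaB inhibitor encoded by Nfkbia, shut the response down again. In liver these genes respond to feeding, stress hormones, partial hepatectomy and the handling of the tissue, and ligand-bound estrogen receptor can act through AP-1 at some genes.

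Levels are log2 intensities relative to the 75th percentile of each array, so a level of 0 is that percentile, and differences between groups are log2 differences of 5 animals against 5. Levels of different genes come from different probes and are not set against each other. A gene is called where the p-value of the linear model (limma, over all 20 arrays), adjusted over all genes measured, was under 0.05. Errors of differences are standard errors of the fit (SE), those of levels standard deviations over animals (SD). The labels treat each animal as separate, so the p-values measure the spread between animals. In a piece of whole liver, fewer cells of a type and less RNA per cell cannot be told apart.

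Esr1, the deleted gene, was lower in every null than in every wild-type animal, with levels from -2.16 to -0.93 against -0.04 to 1.02. Between 51.6% and 70.0% of the spots of an array were well above background, and the animal at the top, wild-type E2 animal 1, also stood apart in the immediate early genes. It was the highest of its group in 24 of the 35 members (68.6%), and in 29.6% of all genes. Wild-type placebo animal 3 was the lowest of its group in 19 of the 35, against 14.6% of all genes. Wild-type E2 animal 4 was the lowest of its group in 16 of the 35, against 19.1% of all genes. Across the 20 animals, the deviation of a member from its group mean correlated with that of the share of spots above background at a median of 0.02 over the members (from -0.48 for the lowest to 0.55 for the highest), as a description of arrays that share this depth.

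Markers of other cell types were measured for 56 of 60 listed genes. All 6 hepatocyte markers were present, and their summed linear level ran from 3594 to 4625 over all groups. The E2 difference was above 0 for 11 of 11 Kupffer cell markers in both genotypes (for 7 of 11 with arrays scaled to their median), with summed levels of 58.6 to 109 in wild-type placebo, 65.3 to 182 in wild-type E2, 63.0 to 119 in null placebo and 77.0 to 145 in null E2. It was above 0 for 10 of 10 endothelial markers in wild types (for 2 of 10 with that scaling), and none of these 21 genes was called. The 3 measured red cell markers summed to 106 to 150 in wild-type placebo, 156 to 240 in wild-type E2, 136 to 201 in null placebo and 150 to 209 in null E2, and their E2 difference in wild types was above 0 for 3 of 3. Their part in the results was not tested.

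The immediate early genes varied more between animals of the same group than most genes did. The median within-group SD of the 35 members was 0.41, against 0.23 over all genes, and 31 of the 35 lay above that all-gene median. The SDs ran from 0.16 to 0.95.

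Promoters of 32 of the 40 genes were in the RefSeq table used here (build GRCm38.p6, from 250 bases before to 50 after the transcription start). Sik1, Klf10, Ccn2, Myc, Egr1, Ier2, Fosl1 and Egr3 had no entry. The windows below belong to Fos, to the called gene Jund and to Nfkbia. They also include some of the genes that followed Fos from animal to animal (Zfp36, Nr4a1 and Dusp1). All were searched for kinds of element by which such genes are known to be switched on. Capitals mark matches to any of 6 motifs searched on both strands: the CArG box that SRF binds, the cAMP response element TGACGTCA, its core TGACG, the AP-1 sites TGAGTCA and TGACTCA, the NF-kappaB site, and the estrogen response element GGTCANNNTGACC. They are written 5′ to 3′ along the gene: Fos on the plus strand at chr12:85473640-85473939, Zfp36 on the minus strand at chr7:28379179-28379478, Nr4a1 on the plus strand at chr15:101266596-101266895, Dusp1 on the minus strand at chr17:26508423-26508722, Jund on the plus strand at chr8:70697489-70697788, and Nfkbia on the minus strand at chr12:55492598-55492897.
Fos: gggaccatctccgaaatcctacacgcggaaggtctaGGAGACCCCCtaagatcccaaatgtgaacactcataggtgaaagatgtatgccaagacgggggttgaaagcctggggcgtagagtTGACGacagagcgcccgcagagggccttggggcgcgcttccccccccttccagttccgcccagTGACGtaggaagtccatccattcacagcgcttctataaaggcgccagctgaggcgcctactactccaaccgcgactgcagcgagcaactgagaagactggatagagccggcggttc
Zfp36: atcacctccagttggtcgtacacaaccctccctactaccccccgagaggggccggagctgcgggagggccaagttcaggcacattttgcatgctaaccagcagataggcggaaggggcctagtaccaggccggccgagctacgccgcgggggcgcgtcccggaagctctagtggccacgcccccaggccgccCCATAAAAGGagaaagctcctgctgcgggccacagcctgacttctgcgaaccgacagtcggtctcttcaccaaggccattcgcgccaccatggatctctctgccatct
Nr4a1: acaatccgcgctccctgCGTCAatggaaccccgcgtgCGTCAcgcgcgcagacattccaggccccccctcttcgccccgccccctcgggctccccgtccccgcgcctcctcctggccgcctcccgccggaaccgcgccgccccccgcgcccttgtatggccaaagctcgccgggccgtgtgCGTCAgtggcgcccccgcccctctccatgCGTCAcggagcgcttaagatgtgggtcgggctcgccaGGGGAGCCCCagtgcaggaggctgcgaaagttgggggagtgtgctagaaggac
Dusp1: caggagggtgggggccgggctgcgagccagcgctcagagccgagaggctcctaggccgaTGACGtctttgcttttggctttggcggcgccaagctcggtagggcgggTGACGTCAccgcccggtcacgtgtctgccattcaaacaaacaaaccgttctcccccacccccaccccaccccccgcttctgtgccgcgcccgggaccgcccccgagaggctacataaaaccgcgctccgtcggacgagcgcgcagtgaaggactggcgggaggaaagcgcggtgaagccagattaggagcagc
Jund: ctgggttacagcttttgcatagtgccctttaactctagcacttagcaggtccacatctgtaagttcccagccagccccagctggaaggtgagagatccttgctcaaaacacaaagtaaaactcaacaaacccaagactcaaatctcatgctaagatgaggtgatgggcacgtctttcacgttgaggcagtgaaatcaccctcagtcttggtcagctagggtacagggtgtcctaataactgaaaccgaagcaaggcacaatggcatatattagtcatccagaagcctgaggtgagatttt
Nfkbia: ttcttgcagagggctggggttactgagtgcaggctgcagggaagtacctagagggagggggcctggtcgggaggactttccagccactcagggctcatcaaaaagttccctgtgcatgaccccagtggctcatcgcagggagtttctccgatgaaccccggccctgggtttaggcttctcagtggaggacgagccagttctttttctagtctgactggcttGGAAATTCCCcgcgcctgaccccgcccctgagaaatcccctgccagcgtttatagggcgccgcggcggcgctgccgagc

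In the Fos window the TGACG core began 129 and 66 bases before the start, and an NF-kappaB match lay 214 bases before it. No CArG box lay in that window, and bases farther than 250 before the start were not searched for any gene. The only match in the Zfp36 window was a CArG box, 58 bases before the start. Nr4a1 held 4 cores, read on the opposite strand as CGTCA, the nearest 40 bases before the start, and an NF-kappaB match that overlapped the start. Dusp1 held the full TGACGTCA element 143 bases before the start, which contains the core on both strands, and 1 more core. Nfkbia held 1 NF-kappaB match 29 bases before the start, and the Jund window held no match. Of the other genes that followed Fos by both correlation measures used below, Jun and Dusp6 had windows without a match to any motif. Ier3 had an NF-kappaB match, and Egr1 and Ier2 had no entry.

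Over the 32 genes, 19 had the TGACG core in their window (59.4%), against 23% of the 27025 genes with a promoter in the table. The full TGACGTCA was found in 3 members (Btg2, Dusp1 and Maff, 9.38%, against 2.03% of all genes) and a CArG box in 3 (Dusp5, Egr2 and Zfp36, 9.38% against 1.81%). NF-kappaB matches lay in 8 (25%, against 9.55%), and an AP-1 site in 1, Csrnp1 (3.12%, against 5.95%). The estrogen response element had no match in any of the 32, and matched in 0.074% of all genes. Egr2, Csrnp1 and Maff have several starts in the table, and a gene was counted where any of its windows matched. These are matches of letters, and binding was not measured.

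E2 against placebo asked which of these genes differed in level 4 hours after the hormone, and whether the receptor was needed. Only that time was sampled, so a change that came and went earlier would not be seen. In wild types, none of the 35 was called, against 0.318% of all genes tested. The differences leaned upward: 25 of 35 lay above 0 (50.6% of all genes did), and their median was 0.19, against 0.00 over all genes. Atf3 had the largest difference (1.15 ± 0.43 SE) and Jund the smallest p-value (adjusted p = 0.398). At an unadjusted p under 0.05 there were 6 members, or 17.1%, against 8.28% of all genes: Jund, Atf3, Ccn2, Klf6 and Ccn1 were above placebo and Klf10 below it. The placebo and E2 animals overlapped in all 35, while 1.5% of all genes had no overlap.

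The size of this lean moved with single animals. Without wild-type E2 animal 1 the median over the members was 0.07, with 20 of 35 above 0 and 3 at an unadjusted p under 0.05. Without wild-type placebo animal 3 it was 0.10, with 21 above 0 and again 3. Without wild-type E2 animal 4, the other animal named above, it was 0.23, with 28 above 0 and 7, and without wild-type E2 animal 3 it was 0.21, with 26 above 0 and 3. By slide, where a slide held animals of both, the median was -0.09 on slide 1, 0.40 on slide 2, which held wild-type E2 animal 1, and -0.24 on slide 4. With arrays scaled to their median in place of the 75th percentile, all genes shifted by -0.22 in this comparison, 17 of 35 members lay above 0, and their median was -0.03 against an all-gene median of -0.22.

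In nulls, E2 also called none of the 35 (0.00455% of all genes), and the differences leaned the other way. Of the 35, 7 lay above 0, against 46.8% of all genes, and the median was -0.10 against -0.01. The 3 members with an unadjusted p under 0.05 (8.57%, against 6.06% of all genes, or 3.24% in the lower direction) were Nfkbia, Rhob and Jun, all below placebo, at -0.31 ± 0.10, -0.48 ± 0.16 and -0.61 ± 0.22 (SE), each with an adjusted p of 0.818. Leaving out 1 animal of either group gave 7 to 12 members above 0, with 12 without null placebo animal 1 and 11 without null placebo animal 3 or null E2 animal 1 or 5. The median was -0.18 without null E2 animal 3, with 6 members at an unadjusted p under 0.05, and that count was 5 without null E2 animal 1 or null placebo animal 2, 3 or 5.

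**Figure D1:**
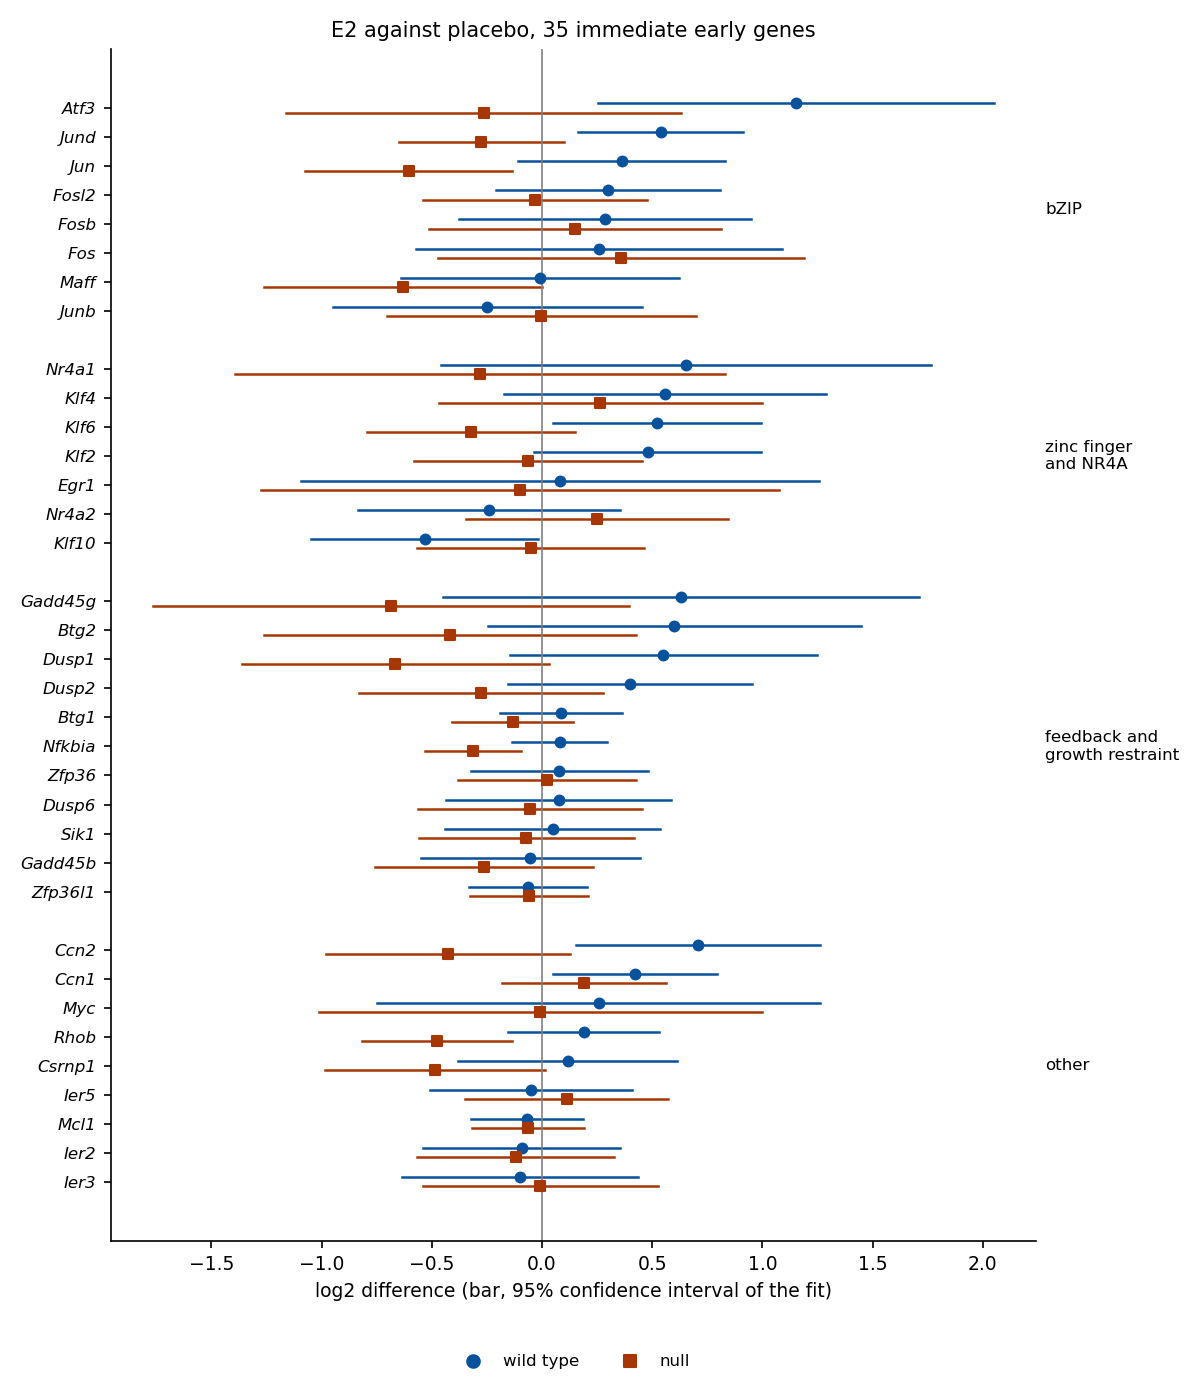
Log2 difference of E2 against placebo for the 35 measured genes, grouped by role, in wild types (circles) and nulls (squares), with 95% confidence intervals of the fit. In wild types 25 of 35 circles lie above 0 (17 of 35 with array-median scaling), and in nulls 7 of 35 squares do (6 of 35).

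The difference between the E2 effects in wild types and in nulls was tested directly. None of the 35 was called (0.164% of all genes), and the smallest adjusted p was 0.513, that of Jund. The values were mostly positive: 27 of 35 were above 0 (53.4% of all genes), with a median of 0.27 against 0.02. The 8 members with an unadjusted p under 0.05 (22.9%, against 7.39% of all genes, or 4.25% in the higher direction) were Jund, Jun, Ccn2, Rhob, Nfkbia, Klf6, Dusp1 and Atf3, all with the higher E2 effect in wild types, from 0.39 ± 0.15 for Nfkbia to 1.42 ± 0.61 for Atf3 (SE). Leaving out any 1 animal kept the median between 0.22 and 0.37. Within slides it was 0.05 on slide 1 and 0.57 on slide 2, and with array-median scaling all genes shifted by -0.12. Some markers of other cells also lay above 0 here, 3 of 3 for red cells (median 0.63, all 3 at an unadjusted p under 0.05). So did 9 of 10 stellate (0.29), 9 of 11 Kupffer (0.12) and 5 of 5 T and NK cell markers (0.20). All 4 cholangiocyte markers did too (0.54). Of endothelial markers 6 of 10 did (0.10), of B cell markers 2 of 4 (0.19), and of neutrophil markers 1 of 3 (-0.005). Of hepatocyte markers 5 of 6 did, with a median of 0.03. None of these markers was called, and their part in the result was not tested.

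Null against wild type asked what the lack of the receptor did to these genes under each treatment. Under placebo none of the 35 was called (0.0727% of all genes), and the null mean was higher for 24 (53.4% of all genes), with a median of 0.27 against 0.01. At an unadjusted p under 0.05 there were 11 members, or 31.4%, against 10.1% of all genes: Nfkbia, Ccn2, Gadd45b, Klf2, Dusp1, Dusp2, Btg1, Jun and Gadd45g were higher in nulls, and Junb and Myc lower. Nfkbia and Dusp2 did not overlap between the groups, as 1.85% of all genes did not (1.2% higher in nulls). Of the 11 genes of feedback and growth restraint, 10 were higher in nulls, with a median of 0.49. Btg1 is among them by its brightest probe, and its other kept probe gave -0.02 ± 0.31 (SE). Without wild-type placebo animal 3 the count at an unadjusted p under 0.05 was 8 and the median 0.21, and without null placebo animal 4 that count was 7. Within slides the median was 0.000376, 0.20 and 0.40 on slides 1, 2 and 3.

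Under E2, Jund was called, lower in nulls, and no other of the 35 was (0.464% of all genes were called, 0.386% as lower). The median was -0.16, against -0.00157 over all genes, with the null mean higher for 14 of 35 (49.6% of all genes). All 8 bZIP genes had the lower mean in nulls, with a median of -0.39 (7 of 8, with a median of -0.27, with arrays scaled to their median), and Jund and Junb did not overlap between the groups (2.5% of all genes did not, 1.14% with nulls lower). Without each animal in turn the difference of Fos ran from -0.58 to 0.11, and those of Jun, Junb, Jund and Atf3 stayed below 0. Within slides, Atf3 was at 0.32 on slide 1 and Fos at 0.0044 on slide 4. Jun, Junb and Jund were below 0 on every slide that held both groups. At an unadjusted p under 0.05 there were 6 members, or 17.1%, against 9.63% of all genes: Jund, Rhob, Myc, Klf6 and Ccn1 were lower and Gadd45b higher. Without wild-type E2 animal 1 the median over the members was 0.01, without null E2 animal 4 or 5 it was -0.10 or -0.07, and without wild-type E2 animal 5 there were 3 members at an unadjusted p under 0.05. Within slides 1 and 4 the median was 0.12 and 0.06, and without the 7 animals whose label numbers are below 750 it was 0.06. Those 7 were spread unevenly: 0 in wild-type placebo, 2 in wild-type E2 (animals 1 and 2), 3 in null placebo and 2 in null E2.

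**Figure D2:**
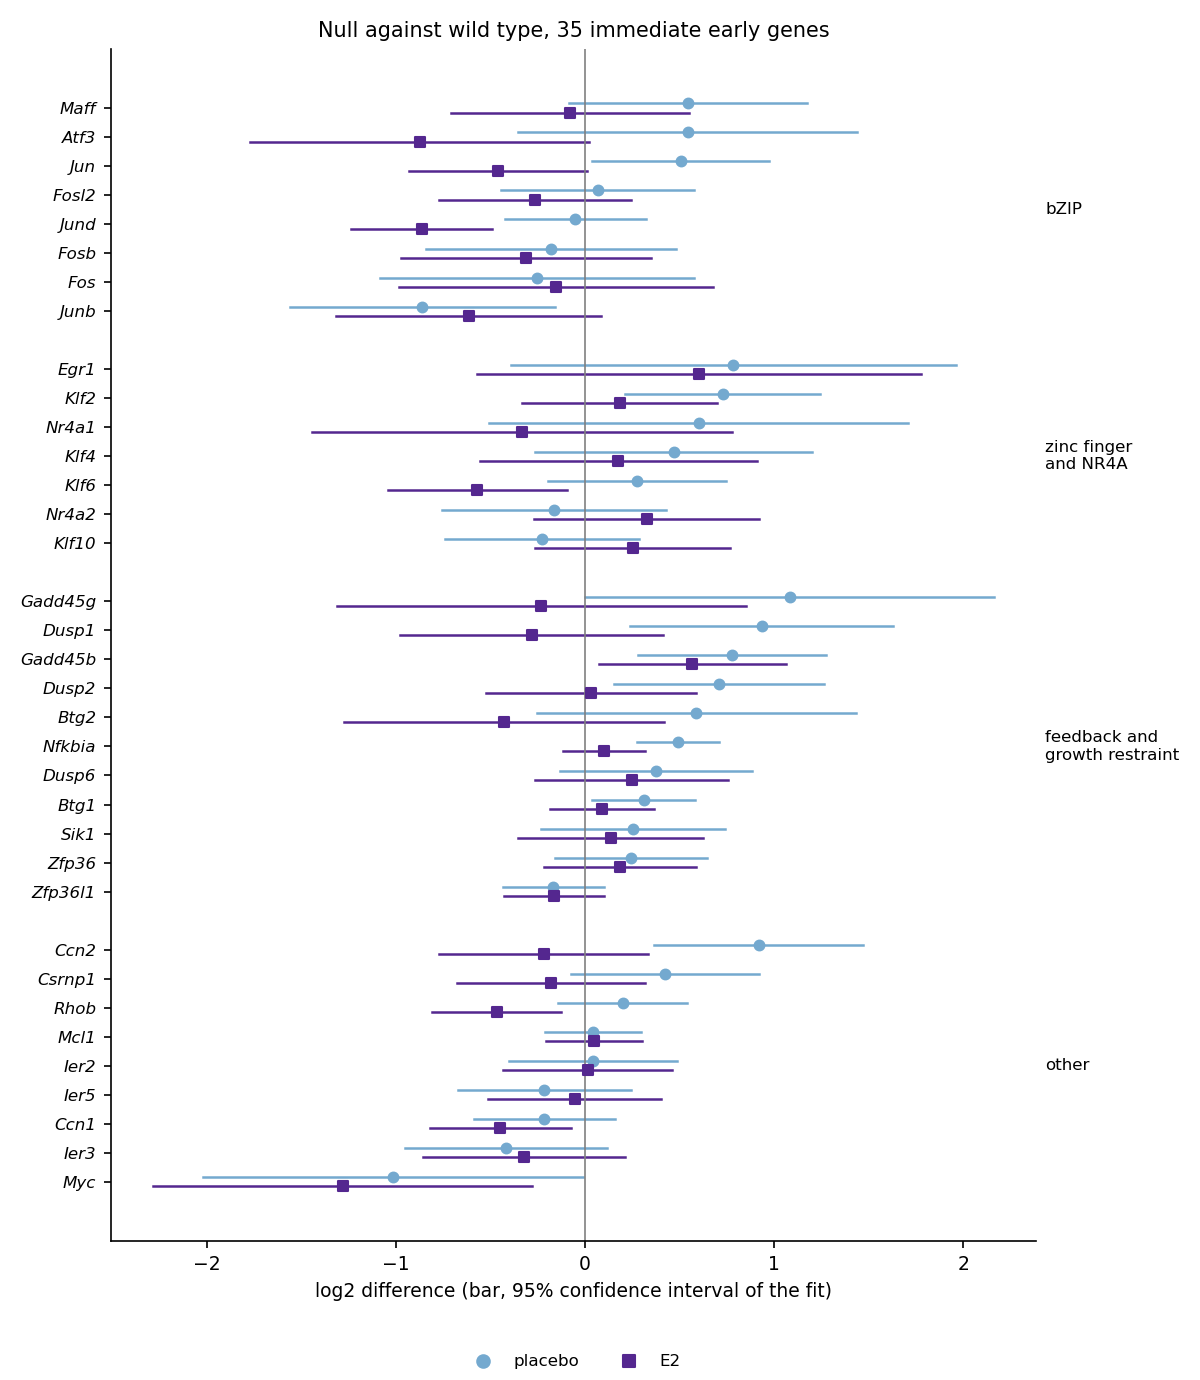
Log2 difference of null against wild type for the 35 measured genes, grouped by role, under placebo (circles) and under E2 (squares), with 95% confidence intervals of the fit. Of the feedback genes 10 of 11 circles lie above 0, and all 8 bZIP squares lie below 0 (7 of 8 with array-median scaling), with that of Jund at -0.87.

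Averaged over both treatments, none of the 35 was called (0.696% of all genes), with Nfkbia (0.30 ± 0.07 SE, adjusted p = 0.0664), Gadd45b (0.67 ± 0.17, adjusted p = 0.0673) and Jund (-0.46 ± 0.13, adjusted p = 0.0968) nearest to the threshold. At an unadjusted p under 0.05 there were 8 members (22.9%, against 12.9% of all genes), and the null mean was higher for 22 of 35 (51.3% of all genes). By group mean, the null placebo group was the highest of the 4 in 17 of the 35 genes and the wild-type placebo group the lowest in 16. The matching shares over all genes were not counted. Within that last group, animal 3 was the lowest in 19 of the 35.

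Among the bZIP genes, Jund encodes JUND, the protein of the JUN family that is expressed at rest in most tissues. Its probe lies at chr8:73224436-73224495 on the plus strand of mm9. In wild-type animals 1 to 5 its levels were 4.86, 4.81, 4.48, 4.39 and 4.64 on placebo and 5.62, 5.17, 4.80, 5.17 and 5.11 on E2. In nulls they were 4.95, 4.19, 4.87, 4.75 and 4.17 on placebo and 4.64, 4.00, 4.53, 4.16 and 4.22 on E2. Every wild-type E2 animal was above every null E2 animal, and the placebo groups spanned much of the same range. The means were 4.64 ± 0.20 and 5.17 ± 0.29 in wild types and 4.58 ± 0.38 and 4.31 ± 0.27 in nulls (SD, n = 5). Under E2, Jund was 1.82-fold lower in nulls (log2 difference -0.87 ± 0.18 SE, adjusted p = 0.0346).

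E2 against placebo gave 0.54 ± 0.18 (SE) for Jund in wild types (1.45-fold, unadjusted p = 0.00719, adjusted p = 0.398) and -0.28 ± 0.18 in nulls, and the difference between these was 0.81 ± 0.25 (unadjusted p = 0.00457, adjusted p = 0.513). Between genotypes under placebo the difference was -0.05 ± 0.18. The lower level in nulls under E2 was seen within each of the 3 slides that held both groups, at -0.53, -0.83 and -1.11. The adjusted p of 0.0346 lies close to the threshold: without each animal in turn it ran from 0.0196 to 0.112, and the call was lost in 7 of 20 cases, each an animal of the 2 groups compared (0.0948 without wild-type E2 animal 1). It was also lost with the slide as a fixed block (adjusted p = 0.113).

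**Figure D3:**
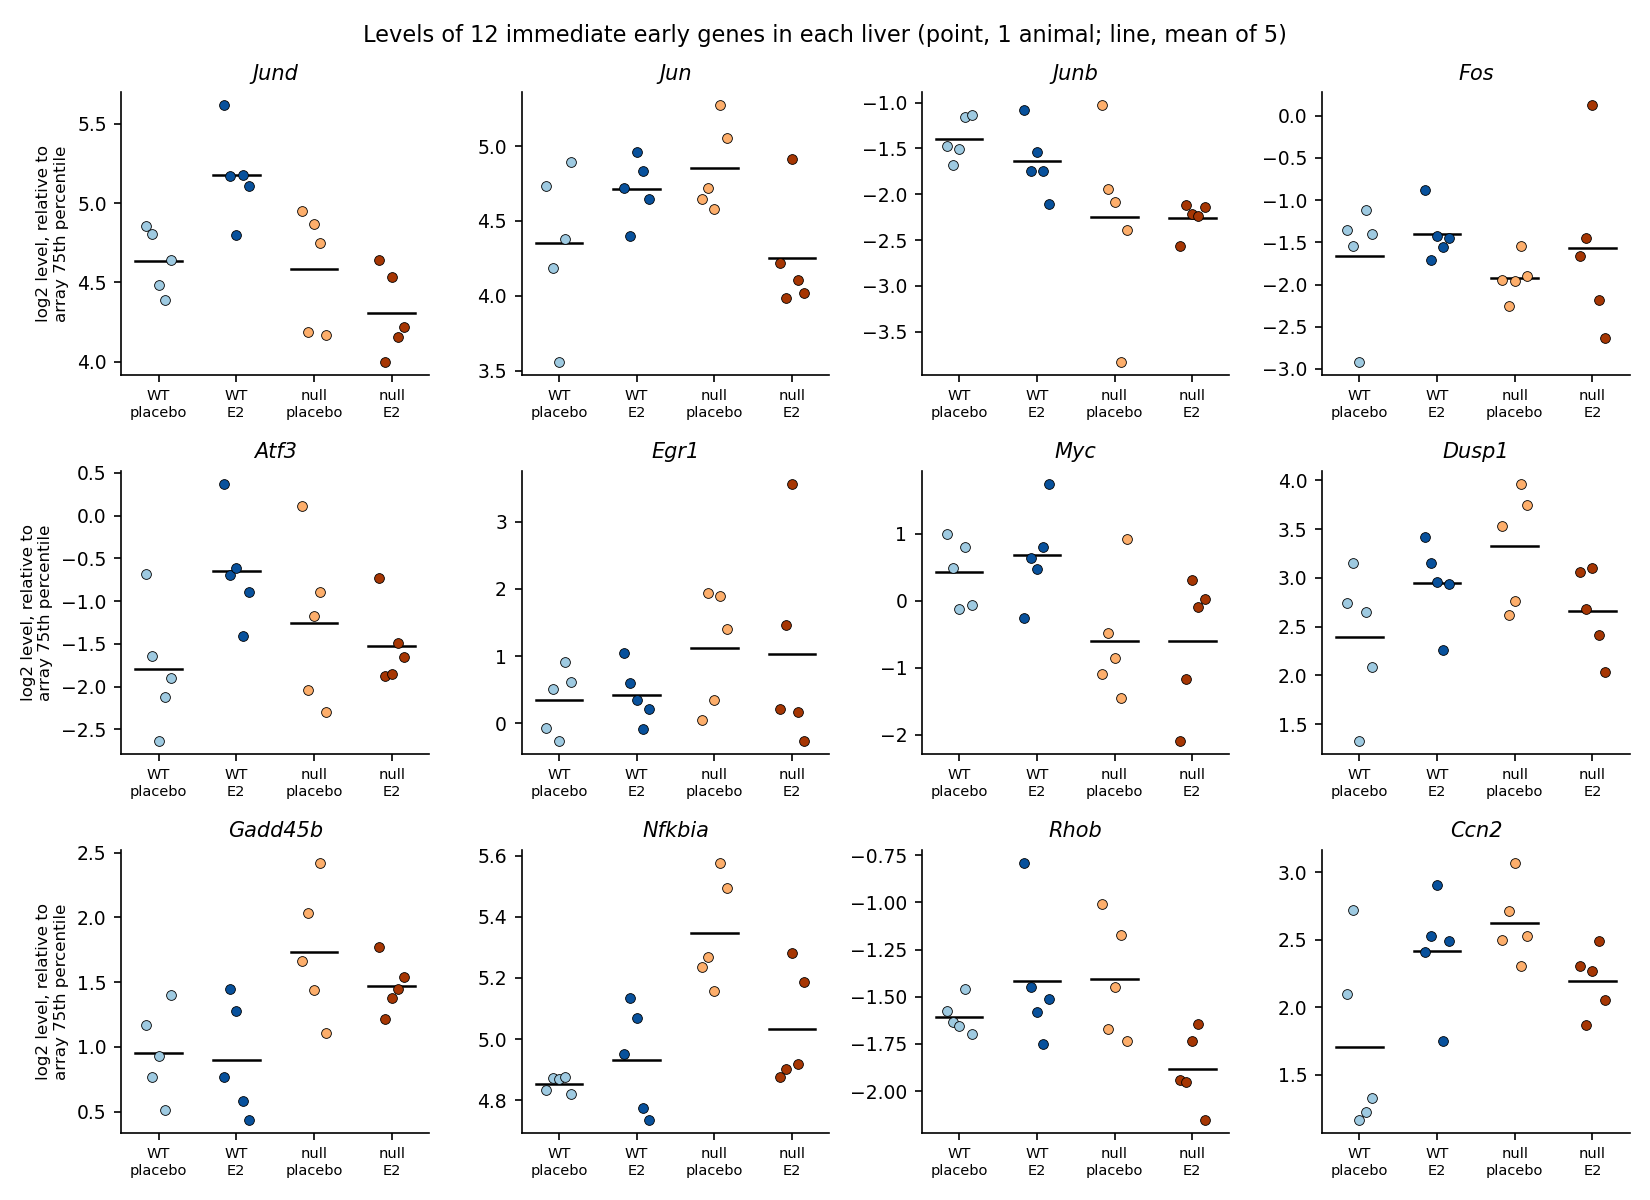
Log2 level of 12 immediate early genes in each of the 20 livers, relative to the 75th percentile of the array, with 1 point per animal and a line at the mean of each group of 5. For Jund all wild-type E2 points lie above all null E2 points, for Nfkbia all null placebo points lie above all wild-type placebo points, and for Fos and Egr1 null E2 animal 3 lies far above its group.

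Jun, the main transactivating partner in AP-1, was read at chr4:94716928-94716987 (mm9). Its levels in wild types were 4.73, 4.19, 3.56, 4.38 and 4.89 on placebo and 4.72, 4.40, 4.96, 4.84 and 4.64 on E2. In nulls they were 4.65, 4.72, 4.58, 5.28 and 5.05 on placebo and 4.22, 3.98, 4.92, 4.11 and 4.02 on E2. Null E2 animal 3 was within the null placebo range, and the other null E2 animals lay below it. E2 against placebo was 0.36 ± 0.22 in wild types and -0.61 ± 0.22 in nulls (SE), with a difference of 0.97 ± 0.32 between the effects (unadjusted p = 0.00676, adjusted p = 0.547).

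Junb, which often opposes JUN in growth control, was read at chr8:87501881-87501940 (mm9). It stood at -1.47, -1.68, -1.51, -1.16 and -1.14 in wild types on placebo and at -1.08, -1.75, -1.54, -1.74 and -2.10 on E2. Nulls had -1.02, -1.94, -2.08, -3.83 and -2.39 on placebo and -2.57, -2.12, -2.22, -2.23 and -2.14 on E2. Null placebo animals 1 and 4 lay at opposite ends, and under E2 all nulls were below all wild types. Null against wild type was -0.74 ± 0.24 averaged over treatments (SE, 1.67-fold, unadjusted p = 0.00578, adjusted p = 0.158), and among fits that left out 1 animal it was called without null placebo animal 1 alone.

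Fos, the founding immediate early gene and partner of JUN, was read at chr12:86817900-86817959 (mm9). Wild types had levels of -1.35, -1.54, -2.92, -1.12 and -1.40 on placebo and -0.88, -1.71, -1.43, -1.55 and -1.45 on E2. Nulls had -1.94, -2.25, -1.96, -1.54 and -1.90 on placebo and -1.67, -1.45, 0.13, -2.19 and -2.63 on E2. Wild-type placebo animal 3 and null E2 animal 3 set the ends of the range, and all groups overlapped. E2 against placebo was 0.26 ± 0.40 in wild types, with a 95% interval from -0.57 to 1.09, and 0.36 ± 0.40 in nulls, from -0.47 to 1.19. Both intervals include 0 and a log2 difference of 1. The sign of both rests on single animals: without wild-type placebo animal 3 the wild-type difference was -0.05, and without null E2 animal 3 that in nulls was -0.07. Within slides the wild-type difference was -0.09, -0.04 and -0.10, and that in nulls 0.43, 0.70 and -0.47.

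Atf3, a stress-induced member of the ATF/CREB branch, was read at chr1:192994547-192994606 (mm9). In wild types it stood at -0.69, -1.65, -2.63, -2.12 and -1.90 on placebo and at 0.37, -0.70, -0.61, -1.40 and -0.89 on E2. In nulls it stood at 0.11, -2.04, -1.17, -0.89 and -2.30 on placebo and at -0.73, -1.87, -1.85, -1.50 and -1.66 on E2. Animal 1 was the highest in every group, and the wild-type groups overlapped through placebo animal 1. The wild-type difference of 1.15 was 2.22-fold (unadjusted p = 0.0146, adjusted p = 0.472), and within slides it was 0.59, 2.0 and -0.20. Of the other bZIP genes measured, Fosb, Fosl2 and Maff had differences within 0.63 of 0 in all comparisons of 2 groups.

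Egr1, a zinc-finger factor induced with Fos, stood at -0.06, 0.51, -0.25, 0.91 and 0.61 in wild types on placebo and at 1.04, 0.61, 0.34, -0.08 and 0.22 on E2. In nulls it stood at 0.06, 1.94, 0.36, 1.89 and 1.40 on placebo and at 0.21, 1.47, 3.56, 0.16 and -0.26 on E2. Null E2 animal 3 was far above the rest, and all groups overlapped. E2 against placebo was 0.08 ± 0.56 in wild types and -0.10 ± 0.56 in nulls (SE). Nr4a1, an orphan nuclear receptor of the same response, ranged from -0.22 to 3.52, with wild-type E2 animal 1 at the top. Klf6 had 0.52 ± 0.22 with E2 in wild types and a difference of 0.84 ± 0.32 between the E2 effects (unadjusted p = 0.016, adjusted p = 0.614), and Klf2, a flow-responsive factor of endothelium, 0.73 ± 0.25 in nulls under placebo (adjusted p = 0.313). Klf10, a TGF-beta-induced factor, had -0.53 ± 0.25 with E2 in wild types, and Klf4 and Nr4a2 had no unadjusted p under 0.05 in any comparison.

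Among the feedback genes, Nfkbia encodes the inhibitor that holds NF-kappaB in the cytoplasm, and was read by a probe that spans chr12:56590945-56591440 on mm9. Its levels in wild types were 4.83, 4.87, 4.87, 4.88 and 4.82 on placebo and 4.95, 5.13, 5.07, 4.77 and 4.74 on E2. In nulls they were 5.23, 5.27, 5.16, 5.58 and 5.49 on placebo and 4.88, 4.90, 5.28, 4.92 and 5.19 on E2. The wild-type placebo animals were close together (SD 0.03), and every null placebo animal was above all of them. Null against wild type under placebo was 0.49 ± 0.10 (SE, 1.41-fold, unadjusted p = 0.000148, adjusted p = 0.0937), positive within each of 3 slides (0.38, 0.28 and 0.69), and among fits that left out 1 animal it was called without null placebo animal 3 alone (0.54, adjusted p = 0.0483). Under E2 it was 0.10 ± 0.10.

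Gadd45b, an inducible growth-arrest gene known for its response to NF-kappaB in liver, was read at chr10:80394367-80394426 (mm9). Wild types had 1.17, 0.77, 0.93, 0.51 and 1.40 on placebo and 0.77, 1.45, 1.28, 0.58 and 0.44 on E2. Nulls had 1.66, 2.04, 1.44, 2.42 and 1.11 on placebo and 1.77, 1.22, 1.37, 1.45 and 1.54 on E2. Most nulls were above most wild types under both treatments, with overlap. Averaged over treatments the difference was 0.67 ± 0.17 (SE, 1.59-fold, unadjusted p = 0.000768, adjusted p = 0.0673), and it was called without wild-type placebo animal 5 (adjusted p = 0.043) or null placebo animal 5 (adjusted p = 0.0435).

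Dusp1, a phosphatase that switches off MAP kinases, stood at 2.74, 3.15, 1.33, 2.65 and 2.09 in wild types on placebo and at 3.42, 3.15, 2.95, 2.26 and 2.93 on E2. In nulls it stood at 3.54, 2.62, 2.76, 3.97 and 3.75 on placebo and at 3.06, 2.68, 3.11, 2.42 and 2.04 on E2. Wild-type placebo animal 3 was the lowest of all, and all groups overlapped. The difference between the E2 effects was 1.22 ± 0.47 (SE, unadjusted p = 0.0182, adjusted p = 0.614). Dusp2, another such phosphatase, did not overlap between genotypes on placebo, where nulls were higher by 0.71 ± 0.26 (adjusted p = 0.346). Gadd45g differed by 1.08 ± 0.52 in the same comparison, with wild-type placebo animal 5 at 4.17 against 6.54 to 7.92 in the other 4. Btg1 (0.31 ± 0.13, adjusted p = 0.424) was also higher in nulls there at an unadjusted p under 0.05. Its other kept probe did not show this, at -0.02 ± 0.31 (SE). Under E2 that probe gave -0.54 ± 0.31, against 0.09 for the probe used. Btg2, Dusp6, Sik1, Zfp36 and Zfp36l1 had no unadjusted p under 0.05 in any comparison.

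Of the other members, Myc, the growth-promoting transcription factor, was read at chr15:61821417-61821476 (mm9). Wild types had 0.99, 0.49, -0.12, 0.80 and -0.06 on placebo and -0.26, 0.65, 0.47, 0.80 and 1.75 on E2. Nulls had -1.10, -0.48, -0.86, -1.45 and 0.92 on placebo and -2.09, -1.16, 0.30, -0.09 and 0.03 on E2. Nulls spread more widely and overlapped wild types under both treatments. Averaged over treatments Myc was 2.22-fold lower in nulls (-1.15 ± 0.34 SE, unadjusted p = 0.00313, adjusted p = 0.119), the largest difference of the 35 in that comparison. E2 against placebo was 0.26 ± 0.48 in wild types and -0.01 ± 0.48 in nulls.

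Ccn2, a matricellular growth factor named Ctgf on the array, had levels of 2.09, 2.72, 1.16, 1.22 and 1.33 in wild types on placebo and of 2.41, 2.52, 2.90, 1.75 and 2.49 on E2. In nulls they were 2.50, 2.71, 3.07, 2.30 and 2.53 on placebo and 2.30, 1.87, 2.26, 2.49 and 2.05 on E2. Wild-type placebo animals 3, 4 and 5 were below all others. Null against wild type under placebo was 0.92 ± 0.26 (SE, unadjusted p = 0.0026, adjusted p = 0.237), and within slides it was -0.11, 1.85 and 1.17. The difference between the E2 effects was 1.14 ± 0.37 (unadjusted p = 0.00679, adjusted p = 0.547).

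Rhob, an immediate early small GTPase, stood at -1.58, -1.64, -1.66, -1.46 and -1.70 in wild types on placebo and at -0.79, -1.45, -1.58, -1.75 and -1.51 on E2. In nulls it stood at -1.01, -1.67, -1.45, -1.17 and -1.74 on placebo and at -1.94, -1.95, -1.73, -1.65 and -2.15 on E2. The null E2 animals were the lowest group, with some overlap. Null against wild type under E2 was -0.47 ± 0.16 (SE, adjusted p = 0.359), and its other kept probe gave -0.32 ± 0.13. E2 against placebo in nulls was -0.48, and the other probe gave -0.19 ± 0.13 (unadjusted p = 0.176). The difference between the E2 effects was 0.67, and the other probe gave 0.30 ± 0.19 (unadjusted p = 0.13). Ccn1, listed as Cyr61 on the array, had 0.42 ± 0.18 with E2 in wild types (adjusted p = 0.544). Ier2, Ier3, Ier5, Mcl1, a survival factor, and Csrnp1 had no unadjusted p under 0.05 in any comparison.

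Genes around these in the pathway were counted from 7 lists, with 89 of 99 genes measured. The 19 upstream kinases and SRF, ELK and CREB factors had 1 call in the comparison where 0.696% of all genes were called: Mrtfa (listed as Mkl1), the actin-regulated partner of SRF, was lower in nulls averaged over treatments (-0.42 ± 0.09 SE, 1.34-fold, adjusted p = 0.0359). No other gene of the 7 lists was called in any of the 6 comparisons. Of other immediate early and feedback genes, 23 of 28 were measured, and in nulls under placebo 18 of 23 were higher, with a median of 0.28 and 11 at an unadjusted p under 0.05, where 53.4% of all genes were higher and 10.1% were at such a p. With E2 they had 16 of 23 above 0 in wild types and 4 of 23 in nulls, with medians of 0.14 (-0.08 with array-median scaling) and -0.26. In that list Phlda1 (-0.90 ± 0.22) and Socs3 (-0.72 ± 0.18), an inhibitor of cytokine signalling, were nearest to a call, lower in nulls averaged over treatments, with adjusted p of 0.0657 and 0.074.

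The 14 other bZIP partners had medians from -0.06 to 0.10 over the 6 comparisons, and none was called. Of AP-1 target genes 8 of 12 were measured, with no unadjusted p under 0.05 in any comparison. The 8 glucocorticoid receptor targets had a median of 0.20 with E2 in wild types (-0.03 with array-median scaling) and -0.22 in nulls, and the liver enzyme Sds differed by 1.12 ± 0.28 between the E2 effects (adjusted p = 0.234). The 8 cAMP and fasting targets had 0.09 and -0.09, with Pde4b (-0.51 ± 0.13) and Irs2 (-0.60 ± 0.18) lower in nulls on average at adjusted p of 0.0766 and 0.119. Of 9 heat shock genes, 2 lay above 0 with E2 in wild types (median -0.42) and 7 in nulls (median 0.08, or -0.03 with array-median scaling). Their chaperone genes Hsp90aa1 (-0.74 ± 0.19) and Hsph1 (-0.88 ± 0.23) had the smallest p-values of that list for the difference between the E2 effects (adjusted p of 0.298 and 0.324).

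Whether the members moved together from animal to animal was examined against Fos, with each animal taken as its deviation from its group mean. Of the 34 other members, 27 correlated positively with Fos, with a median Pearson r of 0.30, against -0.02 over 21971 genes. By a permutation test within groups (100000 resamples, 20 animals, 2-sided, adjusted over the 34), 9 had an adjusted p under 0.05 by r, 9 by Spearman's rho and 8 by both. The 8 were Zfp36 (r = 0.81, rho = 0.61), Egr1 (r = 0.77, rho = 0.62), Jun (r = 0.75, rho = 0.64), Nr4a1 (r = 0.68, rho = 0.78), Dusp1 (r = 0.66, rho = 0.74), Dusp6 (r = 0.63, rho = 0.62), Ier2 (r = 0.62, rho = 0.69) and Ier3 (r = 0.39, rho = 0.66). Their adjusted permutation p of r ran from 0.00238 for Nr4a1 to 0.0478 for Dusp6 and Ier3. Klf10 ran opposite to Fos (r = -0.50, adjusted permutation p = 0.0404, and rho = -0.55, adjusted permutation p = 0.0501).

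The animals farthest from the median of Fos were null E2 animal 3 and wild-type placebo animal 3. Without them 3 members had an adjusted permutation p under 0.05: Dusp6 (r = 0.80), Nr4a1 (r = 0.78) and Zfp36l1 (r = 0.71), each with 0.0151. The r of Egr1 was then 0.49 (adjusted permutation p = 0.198) and that of Jun 0.29 (adjusted permutation p = 0.352), while their rank correlations over all 20 animals are those given above. Without those animals 25 of 34 r were above 0. With slide means removed as well as group means, 8 members had an adjusted permutation p under 0.05, and they were not the same 8. They were Zfp36, Egr1, Jun, Nr4a1, Dusp1, Ier2, Csrnp1 and, opposite to Fos, Klf10. Dusp6 (adjusted permutation p = 0.144), Ier3 (0.287) and Zfp36l1 (0.235) were not among them. Fos itself correlated with the share of spots above background at -0.04. Members not seen to follow Fos included its relatives Junb (r = -0.02), Fosb (-0.09) and Fosl2 (-0.24), and Myc (0.08).

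Among all genes ranked by r with Fos, Zfp36 was at rank 3, Egr1 at 6, Jun at 8, Nr4a1 at 26 and Dusp1 at 41. The 10 highest genes that are no members were 4930455D15Rik (r = 0.85), H1f6 (0.81), TC1627912 (0.79), Ccdc103 (0.78), Usp12 (0.77), Hpse2 (0.75), 2 unnamed noncoding regions (both 0.74), an unnamed probe (0.74) and Gm6003 (0.74).

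**Figure D4:**
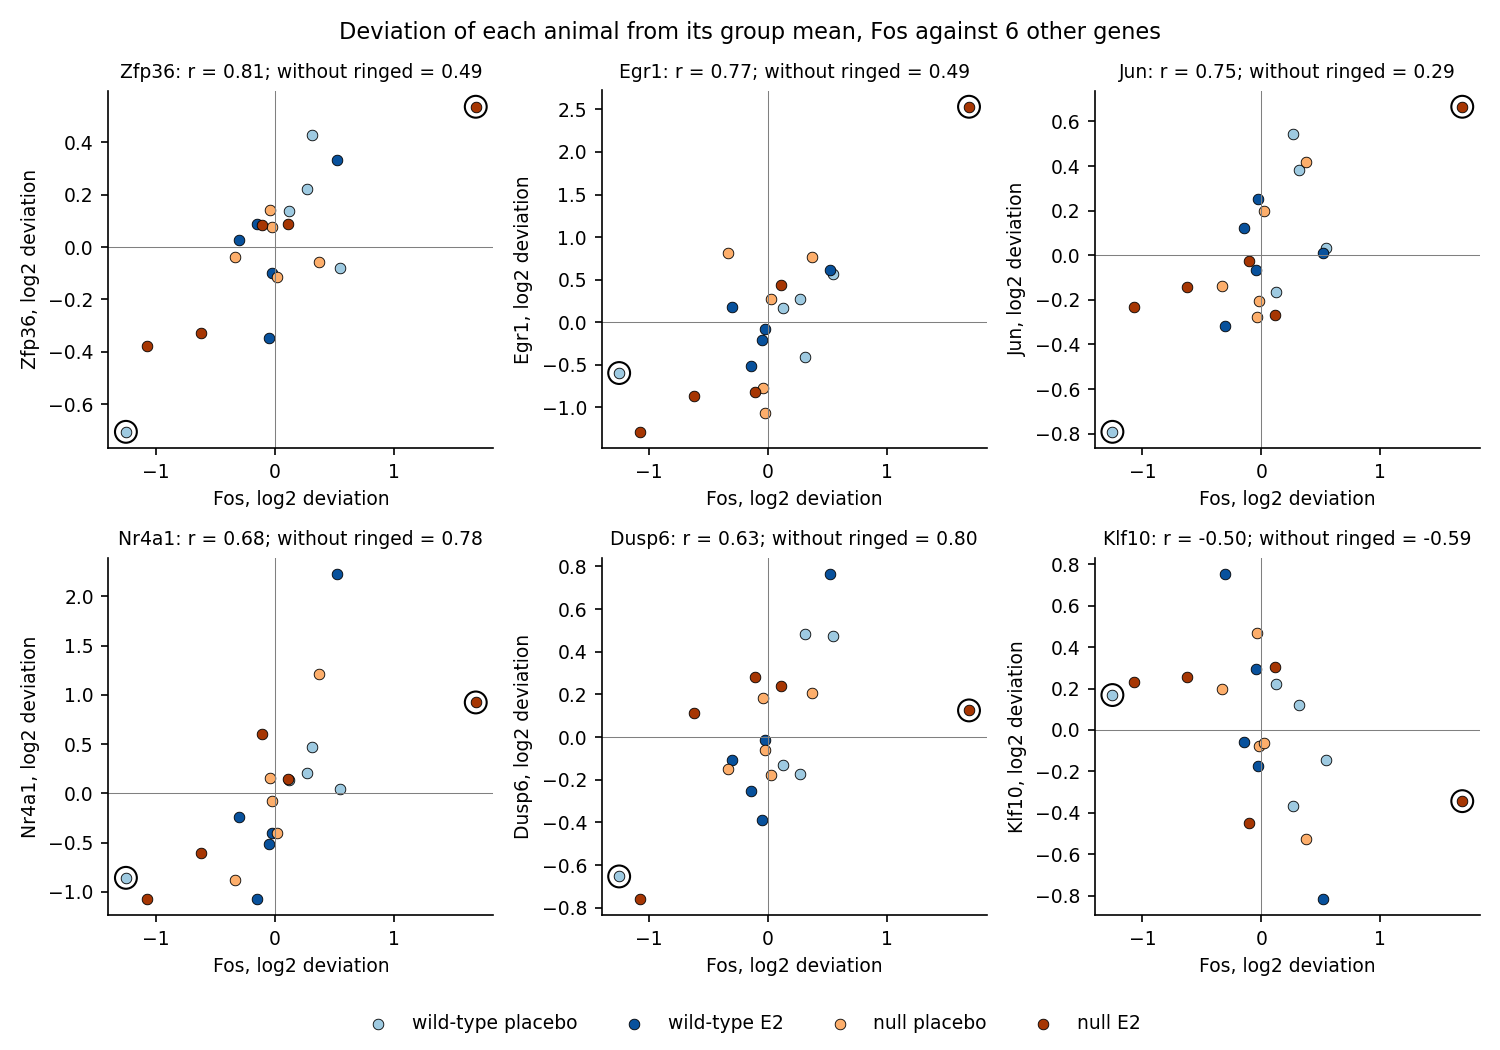
Deviation of each of the 20 animals from its group mean in log2 level, Fos on the horizontal axis and 6 other members on the vertical axes, coloured by group, with rings around null E2 animal 3 and wild-type placebo animal 3. Without the ringed animals r falls to 0.49, 0.49 and 0.29 for Zfp36, Egr1 and Jun and is 0.78 and 0.80 for Nr4a1 and Dusp6, while Klf10 runs opposite to Fos.

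The position of Jund was examined after its values had been seen. Its neighbours on chromosome 8 of mm9 within 250 kb were 27 measured genes. With E2 in wild types 2 of them were called, against 0.318% of all genes: Gdf15, a stress-induced cytokine 71.1 kb away, rose 10.3-fold (3.36 ± 0.39 SE, adjusted p = 7.38e-05), and Pgpep1, a peptidase 50.4 kb away, rose 2.06-fold (1.04 ± 0.10, adjusted p = 1.57e-05). Under E2, 4 of the 27 were called between genotypes, against 0.464% of all genes, all lower in nulls: Gdf15 (-3.97 ± 0.39), Pgpep1 (-0.76 ± 0.10), Isyna1, an enzyme of inositol synthesis 103.4 kb away (-1.54 ± 0.21, adjusted p = 0.000571), and a transcript without a gene symbol whose probe lies 0.6 kb from that of Jund. That transcript had -0.79 ± 0.16 (adjusted p = 0.0272), and 0.57 ± 0.16 with E2 in wild types, beside -0.87 and 0.54 for Jund. Lsm4, between Jund and Pgpep1 at 21.9 kb, had 0.08 ± 0.09 with E2 in wild types, and on the other side of Jund no measured gene within 250 kb was called in either comparison.

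**Figure D5:**
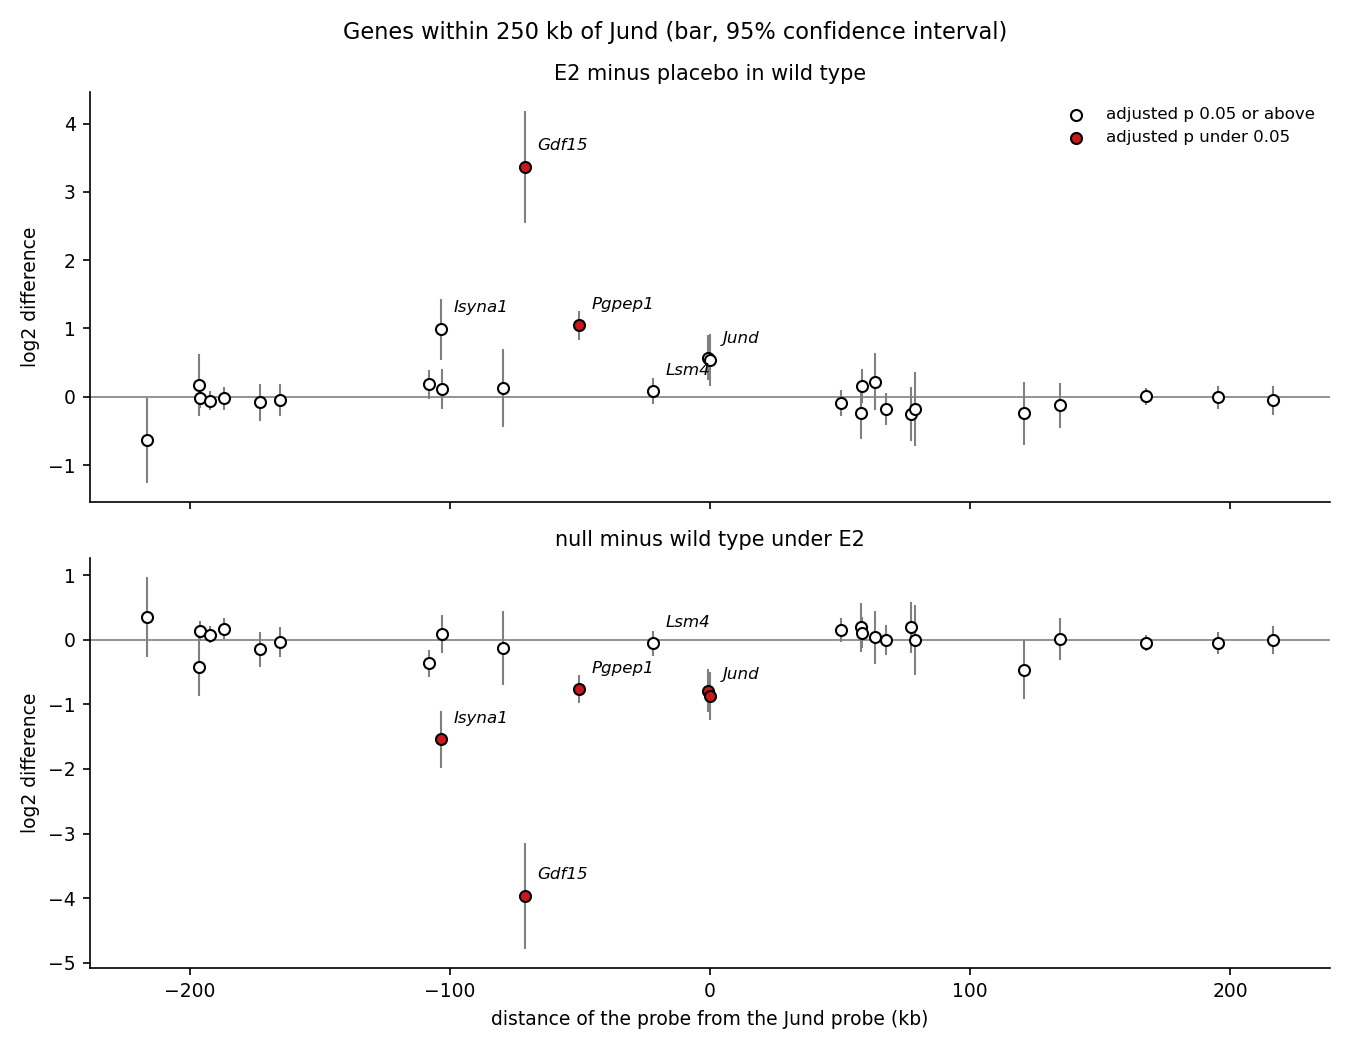
Log2 difference of each measured gene within 250 kb of Jund against the distance of its probe from the Jund probe, for E2 against placebo in wild types (upper panel) and null against wild type under E2 (lower panel), with 95% confidence intervals and called genes filled. The called genes lie at Jund and on 1 side of it, among genes such as Lsm4 whose intervals include 0.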

How the data were processed

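RNA from 20 livers (RIN above 9, per the labels' protocols) was hybridised to 1-colour Agilent arrays. The authors deposited Feature Extraction output (version 10.10.1.1, per the file headers) with probe coordinates on mm9, in which the processed signal is a linear intensity after background subtraction, and log2 values for 32526 probes, deposited by the authors with scaling unstated and used as an alternative. Main levels are log2 of the processed intensity minus the 75th percentile of that array, taken over its 59305 spots that are no controls. Probes were kept where well above background on at least 4 of the 5 arrays of 1 group (30961 of 55681), and each gene took its brightest kept probe, so a gene whose other probes read differently can be misjudged. The precision is limited by the number of arrays.

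limma 3.58.1 (R 4.3.3, package data.table at version 1.17.8) was fitted with 4 group means over 20 arrays and 16 residual degrees of freedom, with p-values adjusted by Benjamini-Hochberg over 21998 genes in each of 6 comparisons. The fit was tested on simulated data. Python 3.11.15 with pandas 2.3.3, scipy 1.17.1 and numpy 2.4.6 did the rest. Alternatives were quantile, array-median and normexp (offset 50) scaling, the deposited values, other filters and probe rules, slide and replicate blocks, and leaving out animals. The members and lists were chosen with earlier results of these data known. Values in every animal are given for members called, for the 3 smallest unadjusted p-values in each comparison, and for Fos, Jun, Junb, Jund, Atf3, Egr1, Myc and Dusp1. From the pathway lists, called genes and otherwise the 2 with the smallest p-values are named (1 result under this rule is not reported here), and the 10 genes outside the members most like Fos are those with the highest r. Probe positions within exons or untranslated regions were not analysed here.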

Additional observations from a re-analysis of the deposited data

Results flagged for a closer look

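In 14 of 140 groups of 5 animals, the highest or lowest animal stood far from the other 4, with a gap of more than 0.71 of the whole range of the group (Dixon's limit). Chance flags about 1 in 20 groups, or 7 of 140. Wild-type E2 animal 1 was the highest of its group by such a gap in Nr4a1 (3.52), Maff (0.98), Sik1 (1.49) and Ier2 (-0.44). Null E2 animal 3 was the highest in Jun (4.92) and the lowest in Ier5 (-3.13). Wild-type placebo animal 3 was the lowest in Fos (-2.92), and wild-type E2 animal 3 the highest in Fosb (-0.97). Null E2 animal 5 was the lowest in Dusp6 (3.42) and in Zfp36l1 (4.60), and null placebo animal 2 the lowest in Zfp36l1 (4.72). The others were Junb in null E2 animal 1 (-2.57, lowest), Fosl2 in wild-type placebo animal 5 (-0.36, lowest) and Mcl1 in null placebo animal 1 (5.67, highest).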

How the results depend on the processing

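The call of Jund in nulls under E2 is the result most open to processing. It was lost, leaving 0 members called, with array-median scaling (adjusted p = 0.218), with no filter on dim probes (0.0831), with slides as a fixed block (0.113), with a fit of only the groups compared (0.0825) and without the 7 animals numbered below 750 (0.328). It was kept with quantile scaling (0.00994), normexp (0.00573), the deposited values (0.00502) and the replicate number as a block (adjusted p = 0.0168). The replicate numbers do not pair the animals: 3 of 20 were most like their own number, and 12 of 30 correlations of deviations were over 0.1 (from -0.16 to 0.24). Averaged over treatments, 1 member was called with normexp and with the deposited values (Jund in both) and with a block for, or without, the animals numbered below 750 (Nfkbia in both). Without each animal in turn, 0 to 1 members were called under placebo, under E2 and averaged. The median over the members with E2 in wild types was -0.035 with array-median scaling, -0.090 within slide 1 and -0.24 within slide 4. The median difference between the E2 effects was 0.57 within slide 2, that of null against wild type under placebo 0.000376 within slide 1, and under E2 0.063 without the animals numbered below 750, 0.12 within slide 1 and 0.065 within slide 4. Without the 2 animals farthest from the median of Fos, 3 members followed Fos at an adjusted permutation p under 0.05. Over all settings the genes called ran from 32 to 90 with E2 in wild types, 0 to 2 in nulls, 10 to 42 for the difference between the effects, 2 to 46 and 35 to 123 for genotype under placebo and E2, and 49 to 273 averaged. Where no cause is given here, the cause was not tested.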

Other observations

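Among the marker lists measured beside the immediate early genes, 2 genes were called between genotypes. Alas2, the first enzyme of haem synthesis in red cell precursors, was higher in nulls under placebo (0.90, adjusted p = 0.00249) and averaged over treatments (0.58, adjusted p = 0.00172). Ngfr, a receptor used to mark stellate cells, was lower in nulls under E2 (-1.24, adjusted p = 0.00668) and averaged (-0.85, adjusted p = 0.011). The summed stellate level ran from 73.7 to 125 in wild-type E2 and from 60.6 to 108 in null E2. All 4 cholangiocyte markers had a higher E2 effect in wild types than in nulls, with a median difference of 0.54, and none was called. Of the T and NK, B and neutrophil markers none was called in any comparison, and Cd8a, Mpo, Ngp and Hbb-b1 did not pass the filter on dim probes.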
